A study of Arabidopsis thaliana with 36 samples.

Results

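HRS1 (AT1G13300), HHO1 (AT3G25790), HHO2 (AT1G68670) and HHO3 (AT1G25550) are GARP transcription factors that join nitrate and phosphate (Pi) signals in Arabidopsis. They were taken by their gene identifiers from the 28496 named genes of the expression table, and 4 of 4 were found. The study sought the transporters that store Pi in plant vacuoles. Its RNA sequencing asked how a larger vacuolar Pi importer pool alters Pi starvation responses. RNA of shoots and roots was sequenced from line 12 and line 4, which both carry PHT5;1-GFP under the constitutive 35S promoter, and from Col-0 wild type (WT). PHT5;1 is a vacuolar Pi importer, and each line is a single transgenic line. Seedlings were grown for 10 days with 250 μM Pi and sampled then (sufficient Pi), or moved to 10 μM Pi and sampled after 1 or 3 more days. Starved seedlings are thus also older and were transferred to another plate, which cannot be told apart from the low Pi. Each of the 18 groups of tissue, genotype and Pi supply had 2 libraries, which the study calls biological replicates, each made from pooled seedlings. Whether these came from separate cultures is not given in the sources used here, so p-values measure the spread between these libraries.

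HRS1 and its homologues are known as nitrate-inducible repressors, also called NIGT1 factors. Nitrate signalling through the NRT1.1 transceptor and NLP factors raises their transcripts, and they then repress genes of high-affinity nitrate uptake such as NRT2.1. HRS1 and HHO1 shorten the primary root when Pi is short and nitrate is present, and PHR1, the central activator of the Pi starvation response, can raise transcripts of the family. The proteins repress genes of the SPX Pi sensors as well, so the family acts on both nutrients.

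The genes lie on the forward strand in TAIR10.1 and overlap no other annotated gene. HRS1 is at chr1:4556878-4558793, with 5 exons. HHO1 is at chr3:9413052-9415240, also with 5 exons. HHO2 is at chr1:25781801-25784118, with 5 exons. HHO3 is at chr1:8976326-8978305, with 4 exons. Their coding sequences are similar, most so for HHO2 with HHO3 (75.92% identical over the aligned bases) and for HRS1 with HHO1 (74.46%), and least for HHO1 with HHO3 (67.57%). The longest identical run between any pair was 32 bases, shorter than the reads.

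The 300 bases before each annotated start were searched on both strands for the PHR1 site (P1BS, GNATATNC), for the 5 letters GAATC bound by HRS1-type factors, and for the core of the nitrate-responsive element (CTT and AAG with 10 bases between them). HHO1 held 3 matches to P1BS, HRS1 held 1 and HHO3 held 1, whereas HHO2 held 0. Of the 27437 promoters of this length in the annotation, 6.51% hold P1BS. GAATC or its reverse complement was found 3 times in HHO1, 2 times in HRS1, 1 time in HHO3 and 0 times in HHO2, and stands in 45.0% of all promoters. The nitrate core matched in none of the 4 windows and in 9.71% of all promoters. The stretches from 260 to 36 bases before the start are shown for the 3 genes with matches, 5′ to 3′ on the forward strand of TAIR10.1, since the promoters of HRS1 and HHO1 share a pair of matches. They come from the RefSeq annotation, capitals mark P1BS and GAATC or its reverse complement, and no match overlaps another. The stretches are chr1:4556618-4556842 for HRS1, chr3:9412792-9413016 for HHO1 and chr1:8976066-8976290 for HHO3.
HRS1: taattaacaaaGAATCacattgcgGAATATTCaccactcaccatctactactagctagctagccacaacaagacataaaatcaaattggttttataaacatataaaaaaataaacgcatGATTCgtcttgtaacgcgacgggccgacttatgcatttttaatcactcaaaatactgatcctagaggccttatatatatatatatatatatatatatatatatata
HHO1: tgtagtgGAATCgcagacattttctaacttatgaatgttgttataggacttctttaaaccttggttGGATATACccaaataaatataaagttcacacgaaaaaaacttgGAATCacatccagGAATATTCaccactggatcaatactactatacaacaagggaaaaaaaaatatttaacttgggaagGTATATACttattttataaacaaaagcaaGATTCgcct
HHO3: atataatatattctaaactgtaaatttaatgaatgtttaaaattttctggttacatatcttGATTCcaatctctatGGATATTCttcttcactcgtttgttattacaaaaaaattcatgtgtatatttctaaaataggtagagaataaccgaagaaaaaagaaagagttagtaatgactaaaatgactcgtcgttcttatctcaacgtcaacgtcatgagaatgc
In HRS1 and in HHO1, GAATC starts 13 bases before a palindromic P1BS match, GAATATTC. In HHO3 the reverse complement of GAATC starts 15 bases before its P1BS match. A match is a description of letters and not evidence of binding.

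Library totals recovered from the steps between the deposited values ran between 19.0 and 40.7 M reads, with a median of 28.4 M over shoot libraries and 28.3 M over root libraries. The overexpressed gene followed the labels, with 52.6 to 93.8 RPKM (the read count of a gene divided by its exon length and by the size of the library) of PHT5;1 in shoots of line 12, 18.9 to 35.5 in shoots of line 4 and 14.7 to 19.9 in shoots of WT. In roots these ranges were 306 to 399 for line 12, 52.2 to 92.4 for line 4 and 28.2 to 41.7 for WT, so line 12 had the higher level and line 4 overlapped WT in shoots only. In shoot libraries the 8 shoot markers summed to 38010 RPKM or more, against 913 or less in root libraries. The 6 root hair markers summed to at most 3.05 RPKM in shoot libraries, against 47.4 to 313 in root libraries. 5 second-replicate shoot libraries (sufficient Pi of line 12 and WT, 1 day of line 12 and line 4, 3 days of WT) hold 313 genes seen in no other library. Values without these libraries are given only where the call of a member changed.

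HRS1 and HHO1 were root transcripts, whereas HHO2 and HHO3 were found in both tissues. HHO1 was close to absent from the shoot, with 0 to 0.214 RPKM (0 to 6 reads) in the 18 shoot libraries and 0 reads in 4 of them. In the 18 root libraries it had 28.2 to 56.7 RPKM. HHO1 therefore fell below the filter of a mean of 0.25 RPKM in the shoot and enters no comparison within that tissue. HRS1 had 0.102 to 1.31 RPKM in the shoot (4 to 53 reads), against 43.5 to 80.7 RPKM in the root. The ranges of HRS1 and of HHO1 in the shoot lay far below those in the root. HHO2 had 20.1 to 76.6 RPKM (median 27.6) in the shoot, against 24.5 to 63.3 (median 35.99) in the root. HHO3 was the most abundant of the family in every shoot library, with 60.9 to 191 RPKM there and 46.9 to 90.9 in the root. Between members these are levels per length of exon, for which lengths of 1237 bases (HRS1), 1195 (HHO1), 1583 (HHO2) and 1396 (HHO3) were recovered from the values. In bulk tissue fewer cells that express a gene and less RNA per cell cannot be told apart.

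**Figure D1:**
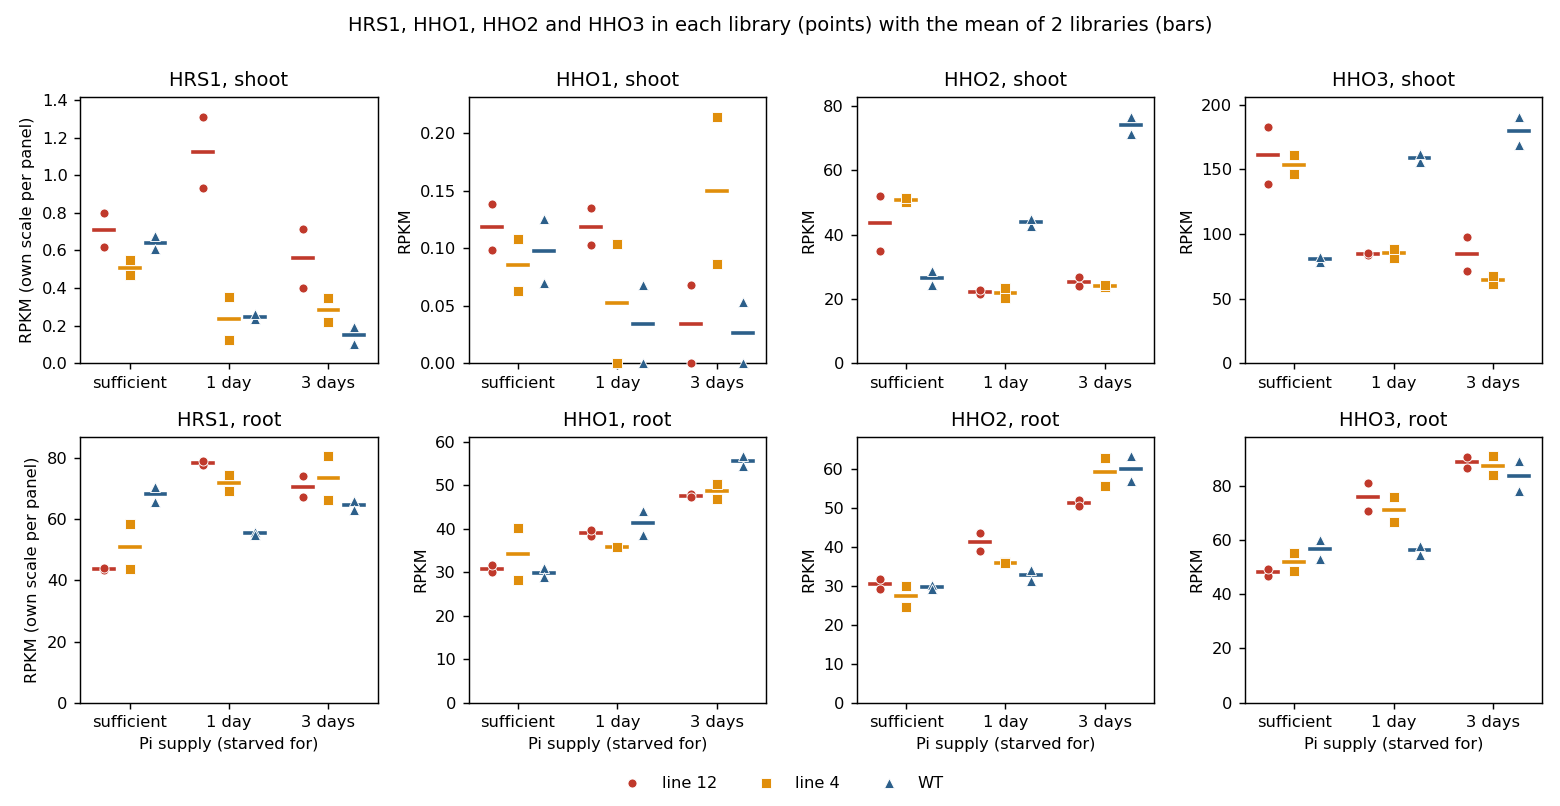
RPKM of HRS1, HHO1, HHO2 and HHO3 in each library (points) with the mean of the 2 libraries (bars), for shoot (top) and root (bottom), at sufficient Pi and after 1 or 3 days of starvation. Each panel has its own scale from 0: HRS1 and HHO1 reach at most 1.31 and 0.214 RPKM in the shoot, and shoot HHO2 and HHO3 are highest in WT after 3 days.

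The order of the groups differed between members. In the shoot, HHO2 was highest in WT after 3 days, with line 4 at sufficient Pi next, and these did not overlap. The lowest HHO2 groups, line 12 and line 4 after 1 day, overlapped each other. HHO3 had 4 groups on top (WT after 3 days, line 12 at sufficient Pi, WT after 1 day and line 4 at sufficient Pi), each overlapping its neighbour, with a lowest library of 139 RPKM. The other 5 groups of HHO3 stood at 97.3 RPKM or less, so a gap separated both sets in shoots. In the root, HHO1 was highest in WT after 3 days, without overlap with the next group, and the 3 lowest groups were those at sufficient Pi, overlapping each other. HRS1 in the root was highest in line 12 after 1 day and lowest in line 12 at sufficient Pi, with only 1 gap between neighbouring groups, that between WT after 3 days and WT after 1 day.

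Between tissues of WT, HRS1 and HHO1 were lower in the shoot at each Pi supply. HHO3 was higher in the shoot at each supply, though under 2-fold at sufficient Pi. Calls between tissues required an adjusted p below 0.05 together with mean RPKM differing 2-fold or more. HHO1 entered this model only through its root level, so its shoot level is set by the pseudocount, and it is described by its reads alone and left out of the counts. Of the other 3 members, HRS1 was called at sufficient Pi with a log2 difference of -6.26 (SE 0.20, adjusted p = 1.31e-18 from limma), where 51.1% of the genes tested were called. After 1 day HRS1 (log2 -6.81) and HHO3 (1.5) were called, where 55.4% of genes were called. After 3 days they stood at -7.36 and 1.1 and were called, where 55.5% of genes were. With so many genes called, the number of members called is no result about the family. HHO2 differed by log2 -0.17 (95% interval -0.45 to 0.10) at sufficient Pi. HHO3 was higher in the shoot at that supply by log2 0.51 (95% interval 0.24 to 0.77). It passed the limma p (adjusted p = 0.000915) and missed the threshold with a ratio of 1.42. The median over all genes tested was -0.65 to -0.75 on this log2 scale. Rescaling each library by its median ratio raised the log2 differences between tissues by a median over genes of 0.615 to 0.708. With that scaling HHO3 at sufficient Pi (log2 1.14) and HHO2 after 1 day (1.14) were called too. From reads counted in pairs, the root level of HRS1 in WT at sufficient Pi was 107 times the shoot level (95% exact Poisson interval 69.1 to 175, counting error only). For HHO1, with 6 shoot reads over both libraries, this was 302 times (103 to 1463). After 1 day and after 3 days HHO1 had 2 shoot reads each, and the ratio was 1293 (232 to 51060) and 2022 (363 to 79850).

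HHO2 and HHO3 rose in WT shoots under Pi starvation. HHO2 had 28.6 and 24.2 RPKM at sufficient Pi, 42.8 and 44.7 after 1 day and 71.4 and 76.6 after 3 days in WT shoots. HHO3 had 78.6 and 82.0 RPKM at sufficient Pi, 156 and 162 after 1 day and 169 and 191 after 3 days. Neither gene had a starved library within the range of the sufficient ones. After 3 days HHO2 was called with a log2 change of 1.48 (SE 0.15, adjusted p = 2.54e-05 from limma) and HHO3 with 1.16 (SE 0.14, adjusted p = 0.000101). HRS1, at a far lower level, fell after 3 days (log2 -1.17, SE 0.32, adjusted p = 0.0141 from limma). Thus 3 of 3 tested members were called after 3 days, where 6.81% of genes were called. After 1 day 0 of 3 members were called, where 6.07% of genes were. At this time HHO2 (log2 0.73, adjusted p = 0.00363) and HHO3 (0.98, adjusted p = 0.000313) passed the limma p but missed the 2-fold ratio, HHO3 with a ratio of 1.98. HHO3 was called at 1 day without WT replicate 1 of that day (log2 1.01), without WT replicate 2 at sufficient Pi (1.015), without the 5 second-replicate libraries (1.015) or when rescaled (1.09).

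At sufficient Pi the shoots of both lines had more HHO2 and HHO3 than WT. HHO3 had 139 and 183 RPKM in line 12, 161 and 146 in line 4, and 78.6 and 82.0 in WT. HHO2 had 34.9 and 52.1 RPKM in line 12, 49.99 and 51.4 in line 4, and 28.6 and 24.2 in WT. All 4 libraries of the lines lay above both WT libraries for both genes. For HHO3 in line 12 the log2 difference was 0.99 (SE 0.14, adjusted p = 0.000231 from limma), with a ratio of 2.004, just past the threshold. It made 1 of 3 members called, where 9.04% of genes were called. It fell under 2-fold without line 12 replicate 2 (log2 0.79), without WT replicate 1 (0.96), without the 5 second-replicate libraries (0.82) and when rescaled (0.94). In line 4, where 3.21% of genes were called, 0 of 3 members were. The log2 differences of 0.94 (SE 0.15) for HHO2 and 0.93 (SE 0.14) for HHO3 in line 4 passed the limma p (adjusted p = 0.00225 and 0.00173) with ratios of 1.92 and 1.91. HHO2 reached 2-fold in line 4 without WT replicate 1 (log2 1.06), and HHO3 without line 4 replicate 2 (1.0). HHO2 in line 12 stood at log2 0.69 (SE 0.15, adjusted p = 0.00396 from limma).

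Under starvation the order between lines and WT was the opposite. After 3 days HHO2 had 23.9 and 26.7 RPKM in line 12, 23.6 and 24.4 in line 4, and 71.4 and 76.6 in WT. HHO3 had 71.6 and 97.3 RPKM in line 12, 60.9 and 67.7 in line 4, and 169 and 191 in WT. No library of a line reached the lower WT library. HHO2 was lower by log2 -1.54 (SE 0.15, adjusted p = 1.11e-05) in line 12 and -1.61 (SE 0.15, adjusted p = 5.95e-06 from limma) in line 4. HHO3 was lower by log2 -1.1 (SE 0.14, adjusted p = 9.99e-05) in line 12 and -1.48 (SE 0.14, adjusted p = 8.16e-06 from limma) in line 4. HHO3 in line 12 fell under 2-fold without line 12 replicate 1 (log2 -0.88). With HRS1 in line 12, 3 of 3 members were called in line 12, where 7.69% of genes were called, and 2 of 3 in line 4, where 8.22% were. The 8 shoot markers summed to 42130 to 44000 RPKM in line 12, 44220 to 47430 in line 4 and 54230 to 63160 in WT on that day, with a median log2 difference from WT of -0.41 in either line (over all genes 0.19 in line 12 and 0.16 in line 4) and 1 of 8 called lower in each line.

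After 1 day the same genes were lower too, near the 2-fold threshold. HHO2 had 21.6 and 22.9 RPKM in line 12, 20.1 and 23.5 in line 4, and 42.8 and 44.7 in WT. HHO3 had 83.7 and 85.4 RPKM in line 12, 81.5 and 88.7 in line 4, and 156 and 162 in WT. The libraries of the lines again lay below those of WT without overlap. HHO2 in line 4 was called (log2 -1.0, SE 0.15, adjusted p = 0.00038 from limma), 1 of 3 members, where 5.84% of genes were called. It lost the call without line 4 replicate 1 (log2 -0.89) or WT replicate 2 (-0.97). In line 12 only HRS1 was called, 1 of 3, where 11.3% of genes were. HHO2 and HHO3 in line 12 stood at log2 -0.97 and -0.91 and HHO3 in line 4 at -0.90, all past the limma p and under 2-fold. Rescaled, these 3 differences were -1.16, -1.1 and -1.01 and were called, while rescaling shifted the median gene by -0.185 in line 12 and -0.102 in line 4. HHO2 in line 12 was also called without WT replicate 1 (-1.0), line 12 replicate 2 (-1.01) or the 5 second-replicate libraries (-1.01). The shoot markers summed to 38010 to 39650 RPKM in line 12, 45790 to 46700 in line 4 and 53330 to 60220 in WT after 1 day, with median log2 differences from WT of -0.59 in line 12 and -0.37 in line 4 and 1 of 8 called lower in each. Their part in the lower HHO2 and HHO3 was not tested.

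**Figure D2:**
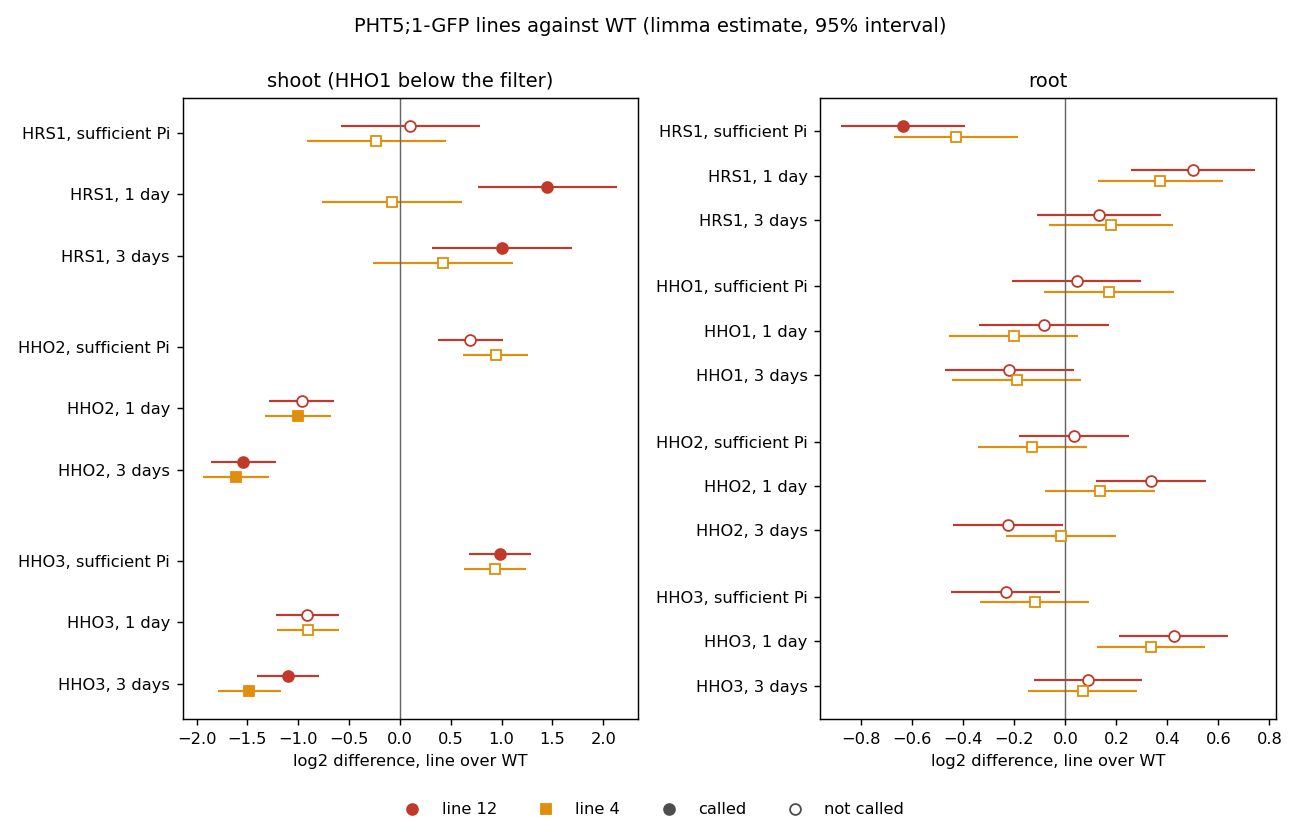
log2 difference of line 12 (circles) and line 4 (squares) from WT at each Pi supply in shoot (left) and root (right), with 95% intervals from limma, and filled symbols where called. Shoot HHO2 and HHO3 lie right of 0 at sufficient Pi (0.69 to 0.99) and left of 0 when starved (-0.90 to -1.61).

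Within each line, the levels of HHO2 and HHO3 in the shoot were lower after starvation, whereas those of WT were higher. In line 4 HHO2 fell by 1.21 on the log2 scale after 1 day (SE 0.15, adjusted p = 0.000348) and by 1.07 after 3 days (SE 0.15, adjusted p = 0.00015 from limma). HHO3 of line 4 fell by 1.25 after 3 days (SE 0.14, adjusted p = 3.27e-05 from limma) and stood at -0.85 after 1 day, under 2-fold. For line 4 this made 1 of 3 members called after 1 day, where 2.46% of genes were called, and 2 of 3 after 3 days, where 6.96% were. In line 12, 0 of 3 members were called after 1 day, where 5.04% of genes were called, and 0 of 3 after 3 days, where 8.27% were. The 4 changes of HHO2 and HHO3 in line 12 ran from log2 -0.93 to -0.75, with adjusted p of 0.000282 to 0.00186 from limma, and missed the ratio. Without replicate 1 of line 12 at sufficient Pi all 4 were called (log2 -1.22 and -1.04 for HHO2, -1.11 and -1.13 for HHO3). Without line 12 replicate 2 of day 1, HHO2 at 1 day was called (-0.97), and without replicate 2 of day 3, HHO3 at 3 days was (-1.15).

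The difference between a line's response and that of WT was tested as an interaction and called by adjusted p alone. HHO2 differed by log2 -1.66 (SE 0.21) in line 12 and -1.94 (SE 0.21) in line 4 after 1 day, and by -2.23 and -2.55 after 3 days. HHO3 differed by -1.90 (SE 0.20) and -1.83 (SE 0.20) after 1 day, and by -2.09 and -2.41 after 3 days, in line 12 and in line 4. The adjusted p of these 8 interactions ran from 3.39e-06 to 5.19e-05 in limma. All lines and times share the WT libraries. Such interactions were frequent: 3 of 3 members were called in line 12 after 1 day, where 33.9% of genes were called, and 2 of 3 in line 12 after 3 days, where 33.2% were. In line 4 they were 2 of 3 after 1 day, where 22.1% of genes were called, and 2 of 3 after 3 days, where 29.8% were. The median interaction over all tested genes was 0.156 and 0.141 in line 12 and 0.106 and 0.155 in line 4, of the other sign to those of HHO2 and HHO3. Of the 8 shoot markers, 4 and 3 had a lower response in line 12 than in WT after 1 and 3 days and 2 and 3 in line 4, with median log2 differences of -0.31 to -0.48.

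**Figure D3:**
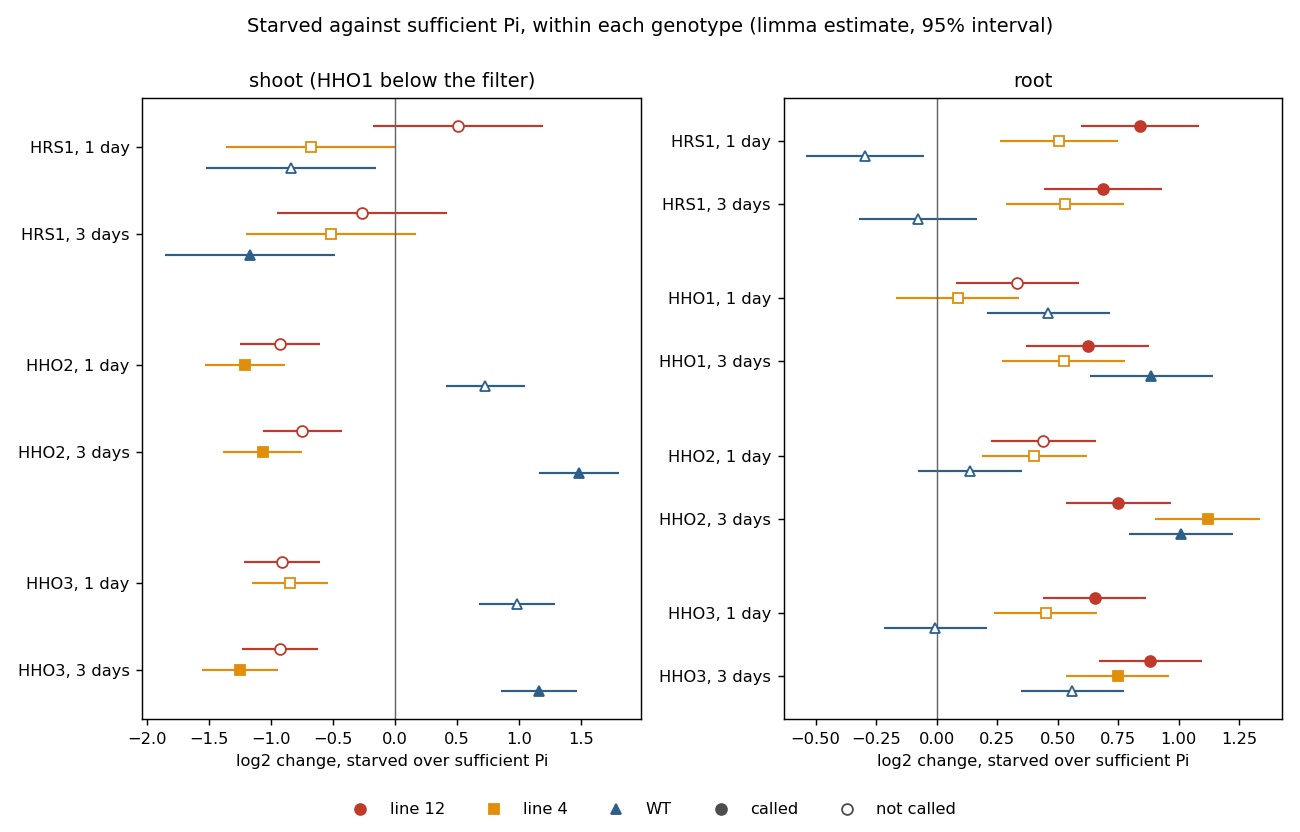
log2 change after 1 or 3 days of starvation over sufficient Pi within line 12 (circles), line 4 (squares) and WT (triangles), with 95% intervals from limma, and filled symbols where called. In the shoot HHO2 and HHO3 of both lines lie left of 0 (-0.75 to -1.25) and those of WT right of 0 (0.73 to 1.48), and in the root HRS1 lies right of 0 in the lines (0.51 to 0.84).

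HRS1 was scarce in the shoot, where it fell in WT and was higher in starved line 12 than in starved WT. It had 0.676 and 0.605 RPKM at sufficient Pi, 0.235 and 0.261 after 1 day and 0.193 and 0.102 after 3 days in WT shoots. In line 12 it had 0.617 and 0.802, 0.934 and 1.31, and 0.399 and 0.717 RPKM at these supplies, and in line 4 it had 0.469 and 0.547, 0.350 and 0.121, and 0.221 and 0.345. The libraries of line 12 lay above those of WT at both starved times, whereas those of line 4 overlapped WT after 1 day. Line 12 was higher by log2 1.45 (SE 0.32, adjusted p = 0.00273) after 1 day and by 1.00 (SE 0.32, adjusted p = 0.0238 from limma) after 3 days. The interaction of line 12 after 1 day was 1.35 (SE 0.45, adjusted p = 0.0336 from limma). These rest on few reads: 96 in line 12 and 16 in WT after 1 day, or 1.11 RPKM (95% exact Poisson interval over read pairs 0.819 to 1.47) against 0.247 (0.107 to 0.487).

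Several of these shoot calls of HRS1 depended on single libraries. The fall in WT after 3 days missed the limma p without either sufficient WT library (log2 -1.115 and -1.23), without replicate 2 of day 3 (-1.01) and without the 5 second-replicate libraries (-1.06). The difference of line 12 from WT after 3 days did so without WT replicate 2 (0.84), line 12 replicate 2 (0.72) or the 5 libraries (0.84), and the interaction without any of the WT libraries of sufficient Pi or day 1 (1.29 to 1.41), without line 12 replicate 1 at sufficient Pi (1.21) or replicate 2 of day 1 (1.15), or without the 5 libraries (1.345). A pseudocount of 0.05 in place of 0.25 also ended the interaction call (log2 1.83). The difference of line 12 from WT after 1 day was called under every alternative that gave a value, and HRS1 does not pass a filter at a mean of 1 RPKM in the shoot. The change of HRS1 in WT after 1 day (log2 -0.84) missed the p, which it passed with no variance trend. Root hair markers summed to 0.0807 and 0.533 RPKM in the 2 line 12 libraries of that day, against 0.333 and 0.474 in WT, and these ranges overlapped. The 8 root markers summed to 16.13 to 16.78 RPKM in line 12 after 1 day. In WT they summed to 15.47 to 15.88 and in line 4 to 14.42 to 15.26, without overlap. At sufficient Pi they summed to 17.56 to 17.85 in line 12 and 14.72 to 16.73 in WT, where HRS1 overlapped. After 3 days line 12 and WT overlapped. The part of these markers in shoot HRS1 was not tested.

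Between line 12 and line 4, HRS1 was the only member called. After 1 day HRS1 in shoots was higher in line 12 than in line 4 by log2 1.53 (SE 0.32, adjusted p = 0.0236 from limma), 1 of 3 members where 2.1% of genes were called. The call was lost without replicate 1 (log2 1.73) or replicate 2 (1.33) of line 12, without replicate 2 of line 4 (1.18) and without the 5 libraries (0.98). At sufficient Pi 0 of 3 members were called, where 0.577% of genes were, and after 3 days 0 of 3, where 0.405% were. For HHO2 and HHO3 the log2 difference between the lines was within -0.25 and 0.38, and the 95% intervals lay within -0.57 and 0.68. In roots 0 of 4 members were called at any supply, where 0.96%, 0.487% and 0.453% of genes were called at sufficient Pi, 1 day and 3 days. With so few genes called, 0 of 4 is no result about the family. The root differences lay between -0.21 and 0.20.

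In WT roots HHO1 and HHO2 rose after 3 days and HRS1 was not called. HHO1 had 30.9 and 28.9 RPKM at sufficient Pi, 44.2 and 38.5 after 1 day and 56.7 and 54.4 after 3 days. HHO2 had 30.3 and 29.1, 34.2 and 31.3, and 63.3 and 56.9 RPKM at these supplies. The day-3 libraries of both genes lay above all earlier WT libraries. In roots a call required an adjusted p below 0.05 and a 1.5-fold ratio. HHO1 was called after 3 days with log2 0.89 (SE 0.12, adjusted p = 5.23e-05) and HHO2 with 1.01 (SE 0.10, adjusted p = 2.7e-06 from limma), 2 of 4 members where 12.4% of genes were called. HHO3 had 60.0 and 53.1, 54.6 and 58.0, and 78.1 and 89.1 RPKM. Its log2 change of 0.56 (SE 0.10, adjusted p = 0.000698 from limma) after 3 days had a ratio of 1.48, just under the threshold. HHO3 was called there when rescaled (log2 0.62), without WT replicate 1 at sufficient Pi (0.65) or without WT replicate 1 of day 3 (0.66). HRS1 stood at 65.7 and 70.6, 56.0 and 55.0, and 66.0 and 63.1 RPKM. Its libraries of day 1 lay below those of sufficient Pi (log2 -0.30, adjusted p = 0.142 from limma), and its log2 change was -0.08 (95% interval -0.32 to 0.17) after 3 days. After 1 day 0 of 4 members were called, where 5% of genes were. HHO1 passed the limma p at 1 day (log2 0.46, adjusted p = 0.0239) with a ratio of 1.38.

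At sufficient Pi, HRS1 was the only member called between line 12 and WT in the root. It had 43.5 and 44.0 RPKM in line 12, 58.5 and 43.7 in line 4, and 65.7 and 70.6 in WT. The libraries of both lines lay below those of WT. In line 12 HRS1 was lower by log2 -0.64 (SE 0.11, adjusted p = 0.00186 from limma), 1 of 4 members, where 5.1% of genes were called. In line 4 it stood at -0.43 (SE 0.11, adjusted p = 0.0285 from limma) with a WT to line 4 ratio of 1.33, and 0 of 4 members were called, where 4.44% of genes were. The replicates of line 4 differed here, and without its replicate 1 the difference was -0.64 and was called. That value rests on replicate 2, which had the fewest reads of any library (19.0 M). Its summed RPKM over all genes was 595689, against 686662 in replicate 1, and all 4 members were lower in it. In line 4 roots at sufficient Pi 144 genes were called higher than WT and 767 lower (median log2 -0.09 over all genes). HHO1, HHO2 and HHO3 of the lines differed from WT by log2 -0.23 to 0.17 at sufficient Pi. Their widest intervals reached -0.45 (HHO3 in line 12) and 0.42 (HHO1 in line 4).

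HRS1 then rose in line 12 roots under starvation, and was not called in WT. It had 43.5 and 44.0 RPKM at sufficient Pi, 78.0 and 79.1 after 1 day and 74.3 and 67.2 after 3 days in line 12. In line 4 it had 58.5 and 43.7, 69.4 and 74.5, and 80.7 and 66.3 RPKM. In both lines every starved library lay above both sufficient ones. The log2 change in line 12 was 0.84 (SE 0.11, adjusted p = 0.000184) after 1 day and 0.69 (SE 0.11, adjusted p = 0.000535 from limma) after 3 days. In line 4 it was 0.51 and 0.53, past the limma p with ratios of 1.41 and 1.44, and without line 4 replicate 1 at sufficient Pi it was 0.72 and 0.74 and was called. After 3 days it was also called without line 4 replicate 2 of that day (0.67). The values 0.72 and 0.74 rest on replicate 2 of line 4 at sufficient Pi, the library with the fewest reads. Of the genes called in line 4 roots, 1144 rose and 80 fell after 1 day, and 2114 rose and 556 fell after 3 days. Set against the response of WT, HRS1 differed by log2 1.14 (SE 0.16, adjusted p = 0.00017) after 1 day and 0.77 (SE 0.16, adjusted p = 0.00494) after 3 days in line 12. In line 4 it differed by 0.80 (SE 0.16, adjusted p = 0.00463) after 1 day and 0.61 (SE 0.16, adjusted p = 0.0335 from limma) after 3 days. The last of these calls was lost without any of 6 root libraries (both WT libraries of sufficient Pi and of day 3, line 4 replicate 2 at sufficient Pi and line 4 replicate 1 of day 3), with log2 values of 0.40 to 0.66, and with no filter on low values or no variance trend at the same 0.61. Over all genes, 1301 of the differences called in line 4 roots were positive and 455 negative after 1 day (median 0.102). After 3 days 973 were positive and 344 negative (median 0.0813).

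The other members rose in line 12 roots as well. HHO3 of line 12 had 46.9 and 49.2 RPKM at sufficient Pi, 70.7 and 80.9 after 1 day and 86.6 and 90.8 after 3 days. HHO3 rose by log2 0.65 (SE 0.10, adjusted p = 0.000503) after 1 day and 0.88 (SE 0.10, adjusted p = 1.34e-05 from limma) after 3 days, and its 1-day response exceeded that of WT by 0.66 (SE 0.14, adjusted p = 0.00473 from limma). Without line 12 replicate 2 of day 1, its 1-day change was 0.56 and not called. HHO2 of line 12 had 31.7 and 29.1, 39.1 and 43.7, and 52.0 and 50.6 RPKM, with a log2 rise of 0.75 (SE 0.10, adjusted p = 7.65e-05 from limma) after 3 days. HHO1 of line 12 had 30.0 and 31.7, 38.2 and 39.6, and 48.0 and 47.3 RPKM, with a log2 rise of 0.62 (SE 0.12, adjusted p = 0.0017 from limma) after 3 days. So 2 of 4 members were called in line 12 after 1 day, where 5.65% of genes were called, and 4 of 4 after 3 days, where 8.59% were.

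In line 4 roots the 3-day responses of HHO2 and HHO3 were called. HHO2 had 30.1 and 24.5 RPKM at sufficient Pi, 36.1 and 35.9 after 1 day and 63.0 and 55.8 after 3 days in line 4. HHO3 had 55.4 and 48.7, 66.5 and 75.9, and 90.9 and 84.1 RPKM. Each starved library lay above both sufficient ones for both genes. The log2 rise after 3 days was 1.12 (SE 0.10, adjusted p = 5.64e-07) for HHO2 and 0.75 (SE 0.10, adjusted p = 3.84e-05 from limma) for HHO3, 2 of 4 members where 13% of genes were called. HHO1 had 40.3 and 28.2, 35.9 and 35.7, and 50.4 and 46.9 RPKM, and its log2 change after 3 days was 0.53 (SE 0.12, adjusted p = 0.00357 from limma), under 1.5-fold. Without line 4 replicate 1 at sufficient Pi, HHO1 was called after 3 days (log2 0.78), a value that rests on the library with the fewest reads. After 1 day 0 of 4 members were called, where 5.96% of genes were.

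After starvation no member was called between a line and WT in the root. In line 12 this was 0 of 4 after 1 day, where 5.87% of genes were called, and 0 of 4 after 3 days, where 5.18% were. In line 4 it was 0 of 4 after 1 day, where 3.17% of genes were called, and 0 of 4 after 3 days, where 3.02% were. At these shares 0 of 4 is no result about the family. In line 12 after 1 day HRS1 (log2 0.50, adjusted p = 0.00911), HHO3 (0.43, adjusted p = 0.0109) and HHO2 (0.33, adjusted p = 0.0416) passed the limma p with ratios of 1.42, 1.35 and 1.26. After 3 days the log2 differences of the 4 members lay between -0.23 and 0.18 in both lines. Among interactions in roots, 2 of 4 members were called in line 12 after 1 day, where 13.6% of genes were called, and 1 of 4 after 3 days, where 11.1% were. In line 4 HRS1 was the 1 of 4 called after 1 day, where 8.55% of genes were called, and the 1 of 4 after 3 days, where 6.42% were. HHO3 in line 4 after 1 day stood at 0.46 (adjusted p = 0.0589 from limma) and passed without line 4 replicate 1 at sufficient Pi (0.55) or of day 1 (0.55). HHO1 in line 4 stood at -0.37 after 1 day and -0.36 after 3 days, and passed when rescaled (-0.49 and -0.45) or without line 4 replicate 2 at sufficient Pi (-0.63 and -0.62). HHO2 after 1 day passed in line 12 when rescaled (0.33) and in line 4 without line 4 replicate 1 at sufficient Pi (0.41).

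Root hair markers moved in the root as HRS1 did at sufficient Pi. Their summed level (RHD6, RSL4, COBL9, EXPA7, EXPA18 and PRP3) was 68.8 to 73.1 RPKM in line 12, 47.4 to 74.0 in line 4 and 128 to 133 in WT at sufficient Pi, and 4 of 6 in line 12 and 5 of 6 in line 4 were called lower than WT. After 1 day the sums were 144 to 148 in line 12, 141 to 150 in line 4 and 117 to 118 in WT. After 3 days they were 222 to 230 in line 12, 249 to 260 in line 4 and 277 to 313 in WT, where 5 of 6 root hair markers rose and HRS1 was not called. The root cap markers SMB and BRN1 summed to 8.41 to 12.8 RPKM over all root libraries, and 0 of 2 were called between a line and WT, whereas 1 of 2 was lower in WT after 1 and 3 days. The shoot markers moved in root libraries too. At sufficient Pi, 1 day and 3 days they summed to 500 to 542, 507 to 557 and 713 to 817 RPKM in line 12, to 365 to 397, 614 to 663 and 708 to 717 in line 4, and to 415 to 546, 833 to 913 and 835 to 868 in WT. In WT roots, where HHO1 and HHO2 rose after 3 days, 6 of 8 shoot markers rose after 1 day and 5 of 8 after 3 days. In line 12, 6 of 8 were called lower than in WT after 1 day, and 8 of 8 had a lower response than WT after 1 day and 4 of 8 after 3 days. In line 4 the response was lower for 2 of 8 after 1 day and 1 of 8 after 3 days. Of all genes 3.02% to 5.87% were called between a line and WT in roots (5.1% in line 12 and 4.44% in line 4 at sufficient Pi). In WT roots 5% were called after 1 day and 12.4% after 3 days. For differences of response, 13.6% and 11.1% were called in line 12 after 1 and 3 days, and 8.55% and 6.42% in line 4. The part of these markers in the root changes of HRS1, HHO1, HHO2 and HHO3 was not tested.

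The effects in shoot and root were compared directly in a model of all 36 libraries. It treats shoot and root libraries as independent, as do the tests between tissues of WT. Whether same-numbered shoot and root libraries came from the same seedlings is not given in the sources used here. For the 3-day response of WT, shoot minus root was log2 0.60 (SE 0.18, adjusted p = 0.0277) for HHO3 and -1.09 (SE 0.28, adjusted p = 0.0115 from limma) for HRS1, 2 of the 3 members above the shoot filter, where 14.5% of genes were called. No such difference can be read for HHO1, which had 6 shoot reads at sufficient Pi and 2 after 3 days. The value of HRS1 missed the p at a pseudocount of 1 (-0.44) or without WT shoot replicate 2 of day 3 (-0.93). That of HHO3 did so without any of 5 WT libraries (shoot and root replicate 1 at sufficient Pi, shoot replicate 2 at sufficient Pi, shoot replicate 2 and root replicate 1 of day 3; log2 0.50 to 0.63) and without the 5 second-replicate libraries (0.54). After 1 day the WT response of HHO3 was larger in the shoot by 0.99 (SE 0.18, adjusted p = 0.000852 from limma) and that of HHO2 by 0.59 (SE 0.19, adjusted p = 0.0439), 2 of 3 members where 10.6% of genes were called. The value of HHO2 passed narrowly and missed the p without any of 15 single libraries. Of these, 7 were WT libraries (both replicates of shoot and root at 1 day, both of root and replicate 2 of shoot at sufficient Pi; log2 0.47 to 0.65), and 8 were libraries of the lines that left the value at 0.59 (both replicates of shoot line 12 at 1 day, shoot line 4 at 3 days, root line 4 at 1 day and root line 12 at 3 days). It also missed it without the 5 second-replicate libraries (0.47), with no filter and with no variance trend. HHO2 after 3 days (0.47) missed the p but passed when rescaled (0.54) or without either shoot library of line 12 at sufficient Pi.

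The effect of the lines at sufficient Pi also differed between tissues for HHO2 and HHO3. For line 12 over WT, shoot minus root was log2 1.22 (SE 0.18, adjusted p = 7.44e-05) for HHO3 and 0.66 (SE 0.19, adjusted p = 0.0181 from limma) for HHO2, 2 of 3 members where 15% of genes were called. In line 4 it was 1.05 (SE 0.18, adjusted p = 0.00111) for HHO3 and 1.07 (SE 0.19, adjusted p = 0.00128 from limma) for HHO2, 2 of 3 where 6.73% were called. HHO2 in line 12 missed the p without shoot WT replicate 2 (0.54), shoot line 12 replicate 2 (0.37), root WT replicate 1 (0.63), root line 12 replicate 2 (0.60) or the 5 libraries (0.25). HRS1 stood at 0.74 in line 12 and missed the p (adjusted p = 0.0849, limma), which it passed at a pseudocount of 1 (0.68) or without either shoot library of line 4 at 1 day.

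Over the 9 group means of a tissue, shoot HHO2 and HHO3 followed each other, with a Pearson r of 0.925 that 51 of 17632 other genes exceeded with HHO2. The genes most like HHO2 in shoots were SHM7 (serine hydroxymethyltransferase 7, r = 0.98), AT1G80440 (a kelch repeat protein, 0.98) and AT1G10150 (a carbohydrate-binding protein, 0.98). Those most like HHO3 were AT4G16950 (annotated RPP5, a disease resistance protein, 0.99), APR3 (APS reductase 3, 0.99) and CYP71B12 (0.99). Shoot HRS1 was most like OSM34 (osmotin 34, 0.96), AT5G25010 (0.96) and AT2G15220 (0.96), and had an r of -0.383 with HHO2 and -0.238 with HHO3. In roots HHO2 was most like AT3G22060 (a receptor-like kinase relative, 0.99), S6K2 (0.99) and the Pi transporter PHT1;9 (0.99). Root HHO3 was most like sks9 (0.99), PGSIP7 (0.98) and AT5G01050 (a laccase, 0.98), and root HHO1 like AT3G47670 (0.97), PAP1 (phosphatidic acid phosphatase 1, 0.97) and AT5G54020 (0.97). Root HRS1 was most like RAP2.1 (an AP2 factor, 0.98), AT3G15358 (0.97) and AT1G49500 (0.97), with r of 0.424 with HHO1, 0.584 with HHO2 and 0.803 with HHO3. These are descriptions over 9 points that share the libraries, and the genes named are the top of all those compared.

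The summed RPKM of the 4 members in shoots was 205 ± 43.4 in line 12, 205 ± 9.25 in line 4 and 107 ± 0.711 in WT at sufficient Pi (SD, n = 2 each). After 3 days it was 110 ± 20.4 in line 12, 88.8 ± 5.56 in line 4 and 254 ± 18.8 in WT (SD, n = 2 each). HHO3 supplied 70.8 to 79.4% of this sum in all shoot groups. In roots the sum ran from 153 ± 1.35 (line 12 at sufficient Pi) to 269 ± 22.5 RPKM (line 4 after 3 days), with HRS1 at 24.5 to 37.0%, HHO3 at 30.3 to 34.4% and the others at 16.1 to 22.8% each. HHO3 was 2.37 to 4.06 times HHO2 in the shoot libraries, against 1.23 to 2.11 times in the root.

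Of the remaining homologues HHO4, HHO5 and HHO6, 0 of 3 were called in a shoot within a genotype or between a line and WT. Of all genes 2.46% to 11.3% were called in these comparisons, so 0 of 3 is no result about them. The shoot response of HHO5 exceeded that of WT by log2 0.92 and 0.81 in line 12 after 1 and 3 days and by 1.0 in line 4 after 1 day. Of all genes 33.9%, 33.2% and 22.1% were called in these differences. In roots HHO5 fell in WT after 1 day (log2 -0.58) and rose in line 12 after 1 and 3 days (0.61 and 0.60), and was higher in line 12 than in WT at those times (0.70 and 0.67). Its root responses exceeded those of WT by 1.19 and 1.17 in line 12 and by 1.1 in line 4 after both times. HHO4 was higher in line 4 roots than in WT after 3 days (0.75), and so was its response (0.87). Of all genes 3.02% to 8.59% were called in these root comparisons and 6.42% to 13.6% in these root differences of response. HHO6 was not called in any of these comparisons.

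Among 16 regulators of nitrate signalling, those called in shoots included CPK32, a calcium-dependent kinase that phosphorylates NLP7, and LBD37, a repressor of nitrogen-responsive genes. In WT shoots after 3 days CPK32 rose by log2 1.85 and LBD37 by 1.21, 2 of 16 higher and 0 lower, where 6.81% of all genes were called (median 0.01, against -0.14 over all genes). In line 12 against WT at sufficient Pi CPK32 was higher (1.81) and BT1 lower (-1.36), 1 higher and 1 lower of 16, where 9.04% of all genes were called (median 0.07, against 0.05). After 3 days CPK32 (-1.65) and LBD37 (-1.33) were lower and NRG2 (1.15) higher in line 12 than in WT, and in line 4 LBD37 (-1.64) and CPK32 (-1.78) were lower and NRG2 (1.17) higher. That made 3 of 16 called in each line, where 7.69% of all genes were called in line 12 and 8.22% in line 4. The medians over the 16 were 0.15 in line 12 and 0.10 in line 4, against 0.19 and 0.16 over all genes. CPK32 had 19.0 and 19.9 RPKM in line 12, 16.8 and 18.7 in line 4 and 50.1 and 75.5 in WT after 3 days.

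In roots BT1 and BT2, BTB and TAZ domain proteins that restrain nitrate uptake genes, moved most of this list. At sufficient Pi BT1 had 68.8 and 67.7 RPKM in line 12, 140 and 129 in line 4 and 266 and 245 in WT. After 1 day it had 347 and 433 in line 12, 283 and 351 in line 4 and 66.2 and 84.7 in WT. The lines were below WT at sufficient Pi and above it after 1 day, without overlap. BT1 was lower in line 12 by log2 -1.90 and in line 4 by -0.92 at sufficient Pi, and higher by 2.37 and 2.07 after 1 day. BT2 stood at -1.83 and -1.12, then at 1.42 and 1.36. These 2 genes were all those called of 16 in either line at sufficient Pi and after 1 day (0 higher and 2 lower, then 2 higher and 0 lower). Of all genes 5.1% and 5.87% were called in line 12 in these comparisons, and 4.44% and 3.17% in line 4.

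**Figure D4:**
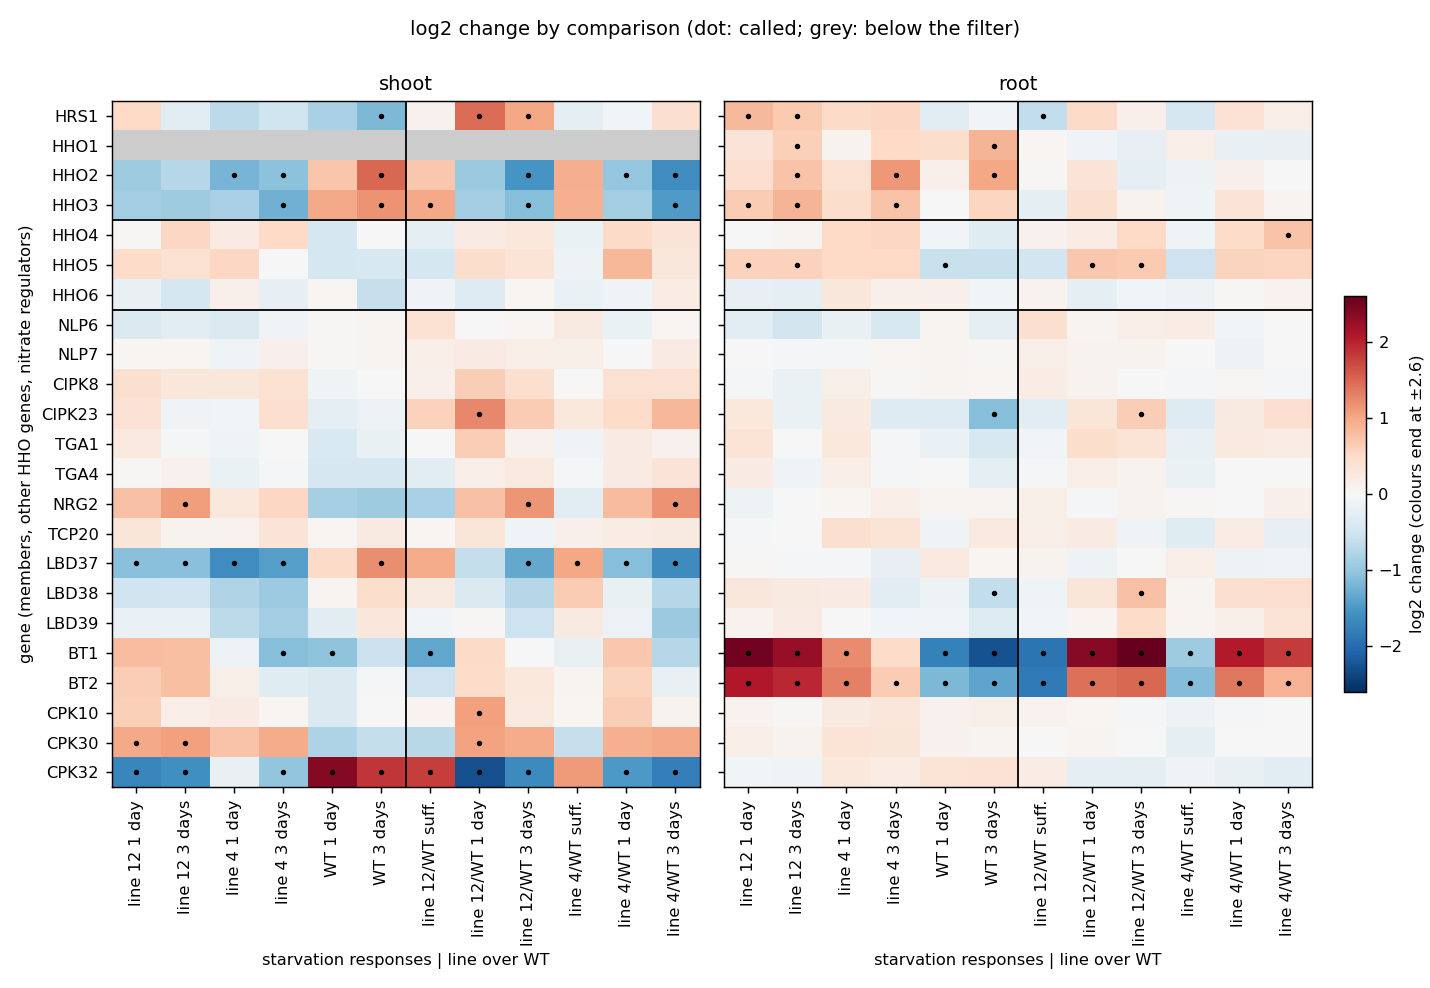
log2 change of the 4 members, of HHO4 to HHO6 and of 16 nitrate regulators (rows) in each comparison (columns), starvation responses on the left of each panel and lines over WT on the right, with a dot where called and grey for HHO1 below the shoot filter. CPK32 and LBD37 in the shoot and BT1 and BT2 in the root carry most of the dots below the members.

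Of the nitrate uptake genes repressed by the family, NRT2.1 fell in WT shoots after 1 day (log2 -1.99) and 3 days (-1.88), and was higher in line 12 (1.87) and line 4 (1.17) than in WT after 1 day. Its shoot level was 10.7 to 11.3 RPKM in line 12, 6.34 to 7.07 in line 4 and 2.21 to 3.59 in WT on that day. NRT2.5 was higher in line 12 (1.83) and line 4 (1.39) than in WT at sufficient Pi and rose in WT after 1 and 3 days (1.1 and 1.41). In WT shoots this made 1 of 4 tested uptake genes higher and 1 lower at each time, where 6.07% of all genes were called after 1 day and 6.81% after 3 days. NRT3.1, the partner protein of NRT2 transporters, was higher in line 12 after 1 day (1.72). Between a line and WT at sufficient Pi, NRT2.5 was the 1 of 4 called in either line's shoots. Of all genes 9.04% were called there in line 12 and 3.21% in line 4. After 1 day 11.3% of all genes were called in line 12 shoots and 5.84% in line 4 shoots. In roots NRT2.1 was far more abundant, at 400 to 707 RPKM, and was not called in any comparison of lines or starvation. NRT2.4 was lower than in WT in line 12 after 1 and 3 days (-1.81 and -1.01) and in line 4 after 1 day (-1.06). Of all genes 5.87% and 5.18% were called in line 12 roots at these times, and 3.17% in line 4 roots after 1 day. The part of the members in the changes of uptake genes was not tested. Of 9 assimilation genes, NIA1 (nitrate reductase) fell after 3 days in shoots of line 12 (-1.21) and line 4 (-1.33), 1 of 9 in each, near the 8.27% and 6.96% of all genes called there. In roots after 3 days, 3 of 9 fell in line 12 (G6PD3 -0.76, NIR1 -0.63 and RFNR1 -0.60), 4 of 9 in line 4 (NIA1 -1.02, G6PD3 -1.01, NIR1 -0.95 and RFNR1 -0.75) and 1 of 9 in WT (NIA1 -0.67). Of all genes 8.59% were called in line 12, 13% in line 4 and 12.4% in WT.

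Of 13 Pi signalling genes, 7 were called higher and 1 lower in WT shoots after 3 days, where 6.81% of all genes were called (median log2 1.16, against -0.14 over all genes), led by AT4 (5.62), SPX1 (3.94), SPX3 (3.01) and IPS1 (2.69). AT4 and IPS1 are non-coding RNAs that sequester miR399, and SPX proteins restrain PHR1. SPX1 in shoots was higher in line 12 than in WT at sufficient Pi (2.02) and lower after 1 day (-1.77) and 3 days (-1.84), and in line 4 it was lower after 1 day (-2.63) and 3 days (-1.89). At sufficient Pi 1 of 13 was higher and 1 lower in line 12, where 9.04% of all genes were called (median -0.03, against 0.05 over all genes). In line 4 this was 0 of 13, where 3.21% were. After 1 day 11.3% of all genes were called in line 12 shoots and 5.84% in line 4 shoots. After 3 days 6 of 13 were lower in line 12 and 4 of 13 in line 4, with 0 higher in either, where 7.69% and 8.22% of all genes were called. In WT roots after 3 days 6 were higher and 2 lower of 13, where 12.4% of all genes were called, led by IPS1 (8.26), SPX3 (6.68), AT4 (5.67) and SPX1 (5.30). At sufficient Pi 6 of 13 were higher in line 12 roots than in WT, among them IPS1 (3.82), AT4 (2.72), SPX1 (1.84) and SPX3 (1.09), and 0 of 13 in line 4 roots, where 5.1% and 4.44% of all genes were called. Of the local Pi sensing genes of the root, LPR1, a ferroxidase, was higher at sufficient Pi in line 12 (1.04) and line 4 (0.60), and lower in both lines after 1 day (-0.85 and -0.78) and 3 days (-0.77 and -0.71). It was the 1 of 5 called in each of these comparisons, where 3.02% to 5.87% of all genes were called. PHR1 itself was not called within a genotype or between a line and WT, and its shoot response exceeded that of WT by 0.50 and 0.57 in line 12 after 1 and 3 days. In these differences of response 33.9% and 33.2% of all genes were called, with medians of 0.156 and 0.141 over all genes.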

How the data were processed

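In the deposited table the authors give RPKM per gene for 36 libraries, the read count divided by exon length and library size. They come from paired reads trimmed and aligned in CLC Genomics Workbench against TAIR10. A note deposited with the table names the tissues of its columns differently from the sample labels, and the labels were followed. The table's group means and log2 ratios, which hold the authors' comparisons, were not used. The 146 unnamed entries (at most 0.109% of summed RPKM) were left out. Library totals, and exon lengths of the 4 members alone, were recovered from the steps between RPKM values (whole reads within 0.001), for depth and counting intervals only, so the edgeR test the authors ran was not repeated. Most low counts were even (15 of 18 shoot libraries of HRS1), so intervals count read pairs.

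Tests covered genes averaging 0.25 RPKM or more: 19773 in the shoot, 20530 in the root and 21141 over both tissues. log2(RPKM + 0.25) was modelled in limma 3.58.1 (R 4.3.3), taking a mean for each of 9 groups in a tissue (9 residual degrees of freedom) or 18 groups over both (18), a variance trend and Benjamini-Hochberg adjustment over all genes tested. Fold changes on this scale understate those of low genes. Ratios used means set to at least 0.25 RPKM. Thresholds were 2-fold in the shoot and between tissues and 1.5-fold in the root. Differences between responses were called by adjusted p alone. The fit and the recovery of totals were tested on simulated data. Upstream sequence came from the RefSeq annotation of TAIR10.1.

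The members and the gene lists were chosen with earlier results of these data known. The 4 members are always named, and of every other list the text gives counts and at most 4 called genes with the largest change in a comparison, and for each tested member the 3 genes, among those averaging 1 RPKM or more, with the highest correlation over 9 group means. HHO6, PHR1 and some interactions fall outside this rule and were chosen after their values were seen. Alternatives were pseudocounts of 0.05 and 1, no filter or a mean of 1 RPKM, rescaling by median ratios, a replicate block, no variance trend, leaving out the 313 genes, each library or, chosen after seeing the data, the 5 libraries that hold these genes.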

Additional observations from a re-analysis of the deposited data

Results flagged for a closer look

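The results in question are differences of an effect between groups that passed their own test in limma, 1 of which is void. In shoots, a line's starvation response differed from that of WT for HHO2 by log2 -1.66 (line 12) and -1.94 (line 4) after 1 day and by -2.23 and -2.55 after 3 days. For HHO3 these were -1.90 and -1.83 after 1 day and -2.09 and -2.41 after 3 days. HRS1 differed by 1.35 in line 12 after 1 day, at 4 to 53 reads in a shoot library.

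In roots, HRS1 differed by 1.14 (line 12) and 0.80 (line 4) after 1 day and by 0.77 and 0.61 after 3 days, and HHO3 by 0.66 in line 12 after 1 day. After 1 day HRS1 thus had positive differences from WT in both tissues of line 12, whereas those of HHO2 and HHO3 were negative in the shoot.

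Between tissues, shoot minus root of the WT response was 0.59 for HHO2 and 0.99 for HHO3 after 1 day, and -1.09 for HRS1 and 0.60 for HHO3 after 3 days. HHO1 is listed with -1.22 after 3 days, but this value is void: with 6 shoot reads at sufficient Pi and 2 after 3 days, below the shoot filter, its shoot response is set by the pseudocount. At sufficient Pi, shoot minus root of the line 12 effect was 0.66 for HHO2 and 1.22 for HHO3, and that of line 4 was 1.07 for HHO2 and 1.05 for HHO3. All of these share WT libraries. With 2 libraries in each group no library could be tested as standing apart within its group.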

How the results depend on the processing

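Numbers of members called, which here include the void call of HHO1 between tissues, moved by over 1.5 times in few cases. With HHO1 left out, the number for shoot minus root also fell by over 1.5 times in some settings. These were without shoot WT replicate 2 at sufficient Pi, without root WT replicate 1 at sufficient Pi, and without the 5 second-replicate shoot libraries. With only genes of a mean of at least 1 RPKM tested, HRS1 leaves the shoot, and line 12 against WT in the shoot has 3 calls in place of 5 and line 12 against line 4 has 0 in place of 1. Rescaling by median ratios gives 8 in place of 5 differences of starvation responses in the root. Without the 5 second-replicate shoot libraries, line 12 against line 4 in the shoot has 0. Leaving out single libraries gives 0 to 4 calls for the starvation response of line 12 in the shoot (0 with all libraries), 0 to 1 for line 12 against line 4 in the shoot, 2 to 5 for the starvation response of line 4 in the root (2 with all) and 0 to 1 for line 4 against WT in the root (0 with all).

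The replicate numbers of the labels did not pair the libraries throughout. Residuals of same-numbered shoot libraries correlated at -0.178 to 0.699 (median 0.0245) and of root libraries at -0.0688 to 0.238 (median 0.0725). Of 36 pairs of groups in each tissue, 11 in the shoot and 10 in the root lay above 0.1. Fitted as a replicate block, the replicate numbers left every number of calls within 1.5 times and added the call of the 1-day difference of HHO3 in line 4 roots (log2 0.46). A block over all second replicates does not single out the 5 shoot libraries that hold 313 genes seen in no other. It therefore does not show whether those 5 share more than these genes. No called member changed its direction under any alternative. HRS1 in the shoot is limited by depth, at 4 to 53 reads in a library, and HHO1 by 0 to 6 reads.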
